A study of Physcomitrium patens with 4 samples.

Results

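The genes described here are the receptor-like kinases of the moss Physcomitrella patens, together with the genes that the same wording in the annotation brought in. A gene was taken when the description of its best Arabidopsis match held the word kinase and also leucine-rich, LRR, receptor, lectin, LysM or wall-associated. This rule found 174 of the 18800 genes in the files, and it used no measured value. The data came from digital gene expression profiling (DGEP), which counts short sequence tags cut from the 3′ part of each transcript. Freshly isolated wild-type protoplasts (t-0) were compared with cultures sampled at 24, 48 or 72 h, which are named t-24, t-48 and t-72 after their hours. The protoplasts were released by Driselase, a mixture of wall-digesting enzymes, from protonemata, the filaments that grow from moss spores. All cells shared this origin and were wild type. They were kept in the dark up to 24 h and under a cycle of light and dark afterwards, so the effects of light and of time in culture cannot be told apart from 24 to 48 h. Each time point gave 1 library of pooled RNA without a replicate, so every test below compares 2 libraries and not 2 conditions.

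Typical receptor-like kinases sit in the plasma membrane, with a receptor part outside the cell and a protein kinase inside. The outer part binds a peptide, a sugar polymer or a hormone, often together with a co-receptor, and the kinase passes the signal on to cytoplasmic kinases, MAP kinase cascades, small ROP GTPases and oxidases that make reactive oxygen. In flowering plants the family is known for sensing microbes, wall damage and neighbouring cells. The symbols used below, such as BAK1 or CERK1, are those of the best Arabidopsis match, and the roles given are known from Arabidopsis and not from the moss.

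The 4 libraries held between 1750184 and 2445814 tags on genes. A gene with 3 tags stood at 1.23 to 1.71 per 1000000 tags, the limit below which it could have been missed by counting error alone. The authors had also removed tags of copy number 1, so a gene could be missed at a level above this limit. Genes of the photosystems, antennae and RuBisCO small subunit, which mark green cells, took 2.57%, 0.864%, 11.4% and 1.97% of the tags in the order of time. The 10 genes with most tags took 4.39% to 7.90% of the libraries up to 48 h and 24.2% at 72 h. Library sizes were therefore scaled with TMM, a trimmed mean over genes of the log ratios between libraries, and the part of these genes in the results below was not tested. In bulk RNA, fewer cells of a type and less RNA per cell cannot be told apart.

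Most of the 174 genes fit the name, and some do not. A protein kinase domain was listed for 133 of them, and 89 had both a kinase domain and leucine-rich repeats. Leucine-rich repeats without a kinase domain were listed for 20, and 14 had no domain listed at all. The descriptions placed 125 genes among the leucine-rich repeat kinases, 14 among the lectin kinases and 6 among the cysteine-rich kinases. Another 3 were matched to somatic embryogenesis receptor kinases, and 3 to BAK1 or to BIR1, a kinase that interacts with it. The malectin and LysM descriptions held 2 genes each, and 16 others had another receptor-like description. Among these, the matches to CRCK2 and CRCK3 were described as receptor-like cytoplasmic kinases. No leucine-rich repeat, lectin or LysM domain was listed for them. No wall-associated kinase was found. The remaining 3 were matched to RACK1B, the receptor for activated C kinase, a scaffold protein built of WD40 repeats that binds to ribosomes and is not a kinase. WD40 repeats were listed for all 3 and a kinase domain for none of them, so these genes go against the name and are given separately. The 6 genes of cysteine-rich description had no kinase domain listed either, and were kept among the other members.

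The 3 RACK1B genes and the other 171 genes moved in opposite directions after 24 h. Tags of the 171 genes made up 4144 per 1000000 tags at 0 h (95% Wilson interval 4061 to 4229), 3806 at 24 h (3716 to 3899), 2243 at 48 h (2178 to 2310) and 1429 at 72 h (1382 to 1477). The intervals of the 4 libraries did not overlap. On the TMM scale, which allows for the few abundant genes at 72 h, the same sums were 3507, 2852, 2455 and 2058 per 1000000. The share of total tags dropped most between 24 and 48 h, whereas the TMM-scaled sum dropped most in the first 24 h. The 3 RACK1B genes together took 570.3 per 1000000 tags at 0 h (540 to 602.4), 498.2 at 24 h (466.3 to 532.4), 1219 at 48 h (1171 to 1269) and 2610 at 72 h (2547 to 2675). At 72 h the RACK1B genes alone therefore held more tags than all the other members. These intervals, like all those below, cover counting error only.

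**Figure D1:**
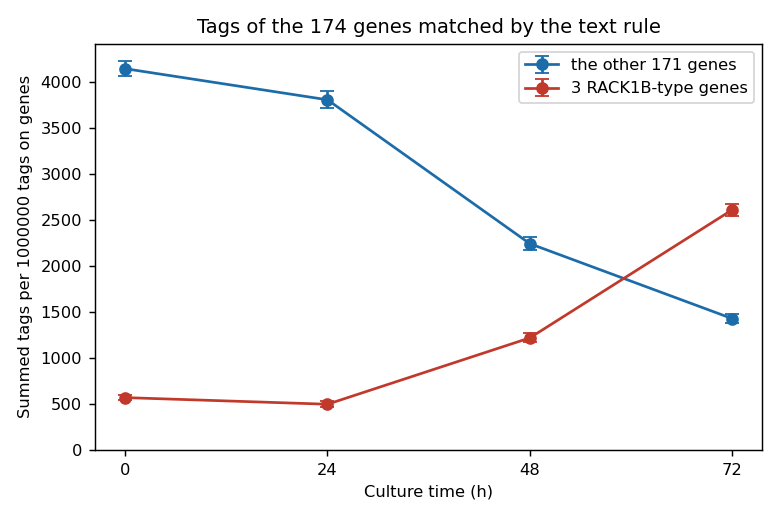
Summed tags per 1000000 tags on genes (vertical axis) against culture time in hours, for the 3 RACK1B-type genes and for the other 171 genes; points are single libraries and bars are 95% Wilson intervals. The sum of the 171 genes falls from 4144 to 1429 while that of the RACK1B genes goes from 570.3 to 2610.

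Most of these genes were weakly represented. Every member had a tag in at least 1 library, 140 had at least 10 tags over the 4 libraries, and 37 reached 100 tags in some library. In the order of time, 150, 140, 114 and 111 members had tags. These make 86.2%, 80.5%, 65.5% and 63.8% of the members, against 88.9%, 86.6%, 74.0% and 76.3% of all genes. The median member had 15 tags at 0 h, 14 at 24 h and 4.5 at both later times, against 29, 26, 13 and 13 for all genes. With such counts, a 0 at one time point says only that the transcript was not detectable at this depth. Tags that matched more than 1 gene had been removed by the authors, so members with near-identical copies may be counted too low.

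Calls rest on the exact test of edgeR under counting error alone. A called gene passed 0.01 both before and after Benjamini-Hochberg adjustment, differed 4-fold or more and had no fewer than 100 tags in the library with more of them. From 0 to 24 h, 1 member was called higher and 4 lower of 127 tested, where 2.43% of all tested genes were called higher and 4.88% lower. The next step, to 48 h, had 4 called higher and 9 lower of 120, beside 7.48% and 6.83% of all genes. The last step, to 72 h, had 5 higher and 6 lower of 99, beside 7.65% and 7.06%. None of these shares of members lay far above the share of all genes. In all, 20 members were called in one or more of these steps, and their tag counts are given below in the order 0, 24, 48 and 72 h. Since few members reach 100 tags, the shares were also taken among genes that did, a comparison added after the data had been seen. In the first step this gave 1 higher and 4 lower of 34 members, beside 6.64% and 13.3% of all such genes. In the step to 48 h, 9 of 26 members were lower, beside 19.1%, and 4 were higher, beside 20.9%. In the step to 72 h, 5 of 19 members were higher, beside 21.3%, and 6 were lower, beside 19.7%.

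**Figure D2:**
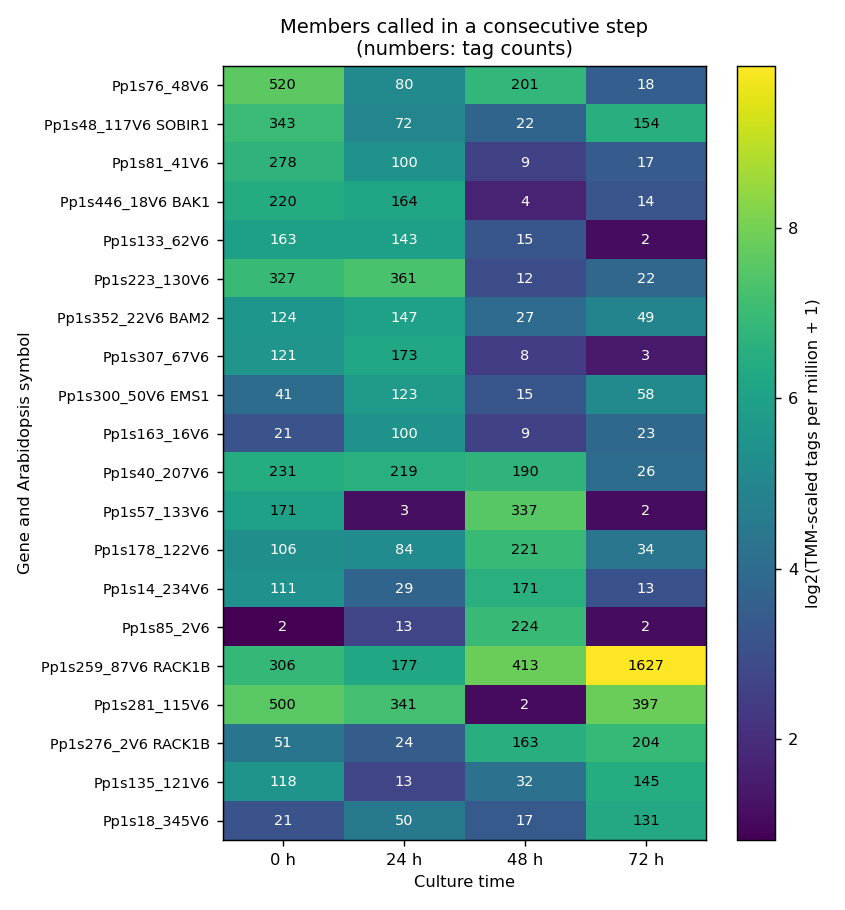
Tag counts (numbers) and TMM-scaled levels (colour, log2 of tags per 1000000 plus 1) of the 20 members called in at least 1 consecutive step; rows are genes with their Arabidopsis symbols and columns are the 4 single libraries. BAK1 drops from 164 tags at 24 h to 4 at 48 h, and Pp1s57_133V6 alternates between 171, 3, 337 and 2.

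In the first 24 h of culture the members showed no common direction. The median log2 change was -0.02 over the 127 tested members and -0.08 over all 15077 genes tested, and 0.15 and 0.09 when total tags set the scale. Without the tag minimum, 13 members were called higher and 17 lower, beside 8.38% and 12% of all genes. Pp1s163_16V6, a leucine-rich repeat kinase matched to AT1G06840, had 21 tags in t-0 protoplasts and 100, 9 and 23 in the cultures. It rose 5.42-fold by 24 h (95% interval 3.36 to 9.13) and fell 8.54-fold by 48 h (4.32 to 19.2), and so was high in the t-24 library alone. Among the members called lower in the first step, the largest count was that of the lectin kinase Pp1s76_48V6, with 520, 80, 201 and 18 tags in the order of time. It fell 5.72-fold by 24 h (4.51 to 7.33) and 10.6-fold from 48 to 72 h (6.52 to 18.2). The annotation listed a legume lectin domain and no kinase domain for it, and its count was highest in fresh protoplasts.

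SOBIR1 is an adaptor kinase that works with receptor proteins lacking a kinase of their own, and takes part in immunity and cell death. Its moss match Pp1s48_117V6 had 343 tags in t-0 protoplasts and 72, 22 and 154 in the cultures. The count fell 4.19-fold by 24 h (3.24 to 5.48), a call lost when total tags or DESeq2 size factors set the scale, and rose 7.40-fold from 48 to 72 h (4.72 to 12.2). Fresh protoplasts and t-72 cells were thus the high libraries and t-48 cells the lowest. A similar course was seen in Pp1s135_121V6, a gene with no domain listed, which had 118, 13, 32 and 145 tags. It fell 7.98-fold by 24 h (4.49 to 15.4) and rose 4.79-fold by 72 h (3.25 to 7.26), although the rise was not called on total tags.

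Pp1s57_133V6 gave uneven counts, with 171 tags in t-0 protoplasts and 3, 337 and 2 in the cultures. It was matched to the leucine-rich repeat kinase AT5G63930, and only leucine-rich repeats were listed for it. The 3 consecutive changes were a 50.1-fold fall (16.9 to 245), a 146-fold rise (49.6 to 713) and a 159-fold fall (43.8 to 1322). High and low libraries alternated, and no replicate shows how far single cultures vary.

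Of the 3 consecutive steps, that from 24 to 48 h showed the widest gap between the median member and the median gene. Their median log2 change was -1.05, or -1.16 without the RACK1B genes, against -0.30 over all 14312 genes tested. When total tags set the scale, the median of all genes moved by -0.54 and that of the 171 genes moved with it, to -1.69. A change of scale shifts all log2 changes of a step by nearly the same amount. The gap of -0.85 between the medians therefore had to stay, and is no check of the scaling. The tested members also had fewer tags, with a median of 37 in the library with more tags, against 62 over all genes tested. A count of 0 after few tags gives a large negative log2 change, and the part of low counts in the gap was not tested. Without the minimum of 100 tags, 43 of the 120 tested members were called lower and 19 higher, where 24.4% and 14.8% of all genes were.

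**Figure D3:**
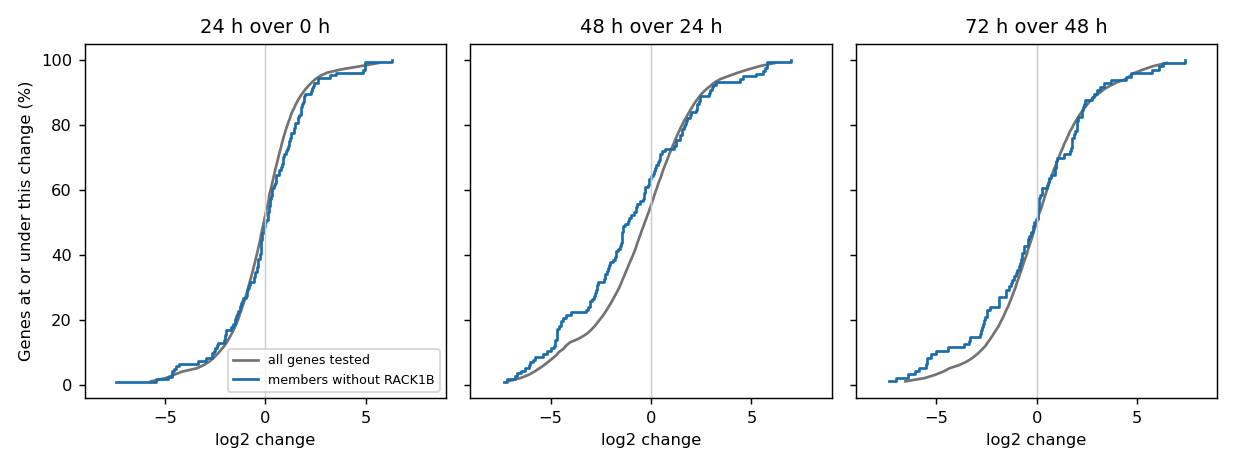
Share of genes (vertical axis, %) at or under each log2 change (horizontal axis) for the tested members without the RACK1B genes and for all tested genes, in the 3 consecutive steps. The 2 curves lie close together from 0 to 24 h, with medians of 0.00 and -0.08, and the members lie to the left from 24 to 48 h, with medians of -1.16 and -0.30.

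BAK1 is the co-receptor that pairs with many leucine-rich repeat receptors, among them the brassinosteroid and flagellin receptors. Its match Pp1s446_18V6 had 220 tags in t-0 protoplasts and 164, 4 and 14 in the cultures. It fell 31.5-fold between 24 and 48 h (12.1 to 117), and both later libraries were low. The somatic embryogenesis receptor kinases are close relatives of BAK1 and also act as co-receptors. Of these, the SERK1 match Pp1s35_219V6 had 116, 110, 185 and 159 tags and was called in no comparison, with 2.19 times the level at 48 h that it had at 24 h (1.72 to 2.80). Pp1s118_79V6, also matched to SERK1, had 5, 24, 2 and 7 tags. BIR1, which binds BAK1 and holds it back, was matched by Pp1s2_40V6, whose 14 tags all came from the t-24 library, and by Pp1s173_42V6, whose 9 tags all came from the t-0 library and which was named after its values were seen.

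Pp1s281_115V6 had 500 tags in t-0 protoplasts and 341, 2 and 397 in the cultures. This leucine-rich repeat kinase, matched to AT1G79620, fell 131-fold from 24 to 48 h (36.0 to 1086) and rose 210-fold by 72 h (57.7 to 1739). It was nearly without tags in the t-48 library alone. Pp1s223_130V6, matched to AT5G62710, had 327, 361, 12 and 22 tags and fell 23.1-fold at 48 h (13.1 to 45.2). Pp1s307_67V6, for which leucine-rich repeats and no kinase domain were listed, had 121, 173, 8 and 3 tags and fell 16.6-fold (8.25 to 39.1). Unlike Pp1s281_115V6, both of these stayed low at 72 h.

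Other leucine-rich repeat kinases fell less steeply in the same step. Pp1s81_41V6 had 278, 100, 9 and 17 tags and fell 8.54-fold (4.32 to 19.2). Pp1s133_62V6 had 163, 143, 15 and 2 tags and fell 7.32-fold (4.29 to 13.4). EMS1 is a receptor kinase that sets cell fate in the anther. Pp1s300_50V6, one of its 8 matches, had 41, 123, 15 and 58 tags and fell 6.30-fold (3.67 to 11.6). BAM2 is a relative of the meristem receptor CLAVATA1, and was matched by Pp1s352_22V6 with 124 tags in t-0 protoplasts and 147, 27 and 49 in the cultures. It fell 4.18-fold (2.76 to 6.56), close to the 4-fold limit, after 2 libraries with similar counts. The other BAM2 match, Pp1s59_314V6, had 29, 11, 2 and 9 tags and was named after its values were seen.

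The members called higher at 48 h than at 24 h, with the minimum of 100 tags, had no kinase domain listed. Pp1s85_2V6, with leucine-rich repeats and a match to AT1G17230, had 2, 13, 224 and 2 tags. Its rise was 22.4-fold (12.9 to 42.8) and its fall by 72 h was 106-fold (29.0 to 880), so it was high in the t-48 library alone. Pp1s14_234V6, also with leucine-rich repeats only, had 111, 29, 171 and 13 tags, rose 7.68-fold (5.16 to 11.8) and fell 12.4-fold (7.09 to 23.9). The others called higher in this step were Pp1s57_133V6, given above, and the RACK1B match Pp1s276_2V6.

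Genes with and without a listed kinase domain gave different counts of calls in this step. Leaving out the RACK1B genes, 91 genes with a kinase domain were tested, of which 8 were called lower and 0 higher, where 6.83% of all genes were lower and 7.48% higher. The same step had 26 tested genes with no kinase domain listed, of which 1 was called lower and 3 higher. The median log2 change was -1.43 in the first group, with 29 genes above 0 and 62 below, and -0.13 in the second, with 13 on each side. Without the tag minimum, 34 genes with the domain were called lower and 12 higher, and 9 and 6 without it, beside 24.4% and 14.8% of all genes. This split was looked at after the values had been seen, and the difference between the groups was not tested. From 0 to 24 h both groups had medians near 0, at 0.00 and -0.04. In the step from 48 to 72 h the counts leaned the other way, with 3 higher and 1 lower among genes with the domain, and 1 higher and 5 lower among those without it, beside 7.65% and 7.06% of all genes. Both steps share the t-48 library, so a high or low count there moves them in opposite directions. Pp1s57_133V6, Pp1s85_2V6 and Pp1s14_234V6, the 3 called higher without the domain, were among the 5 called lower at 72 h. Against fresh protoplasts the medians were -0.94 with and -0.78 without the domain at 48 h, and -1.01 and -0.98 at 72 h.

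**Figure D4:**
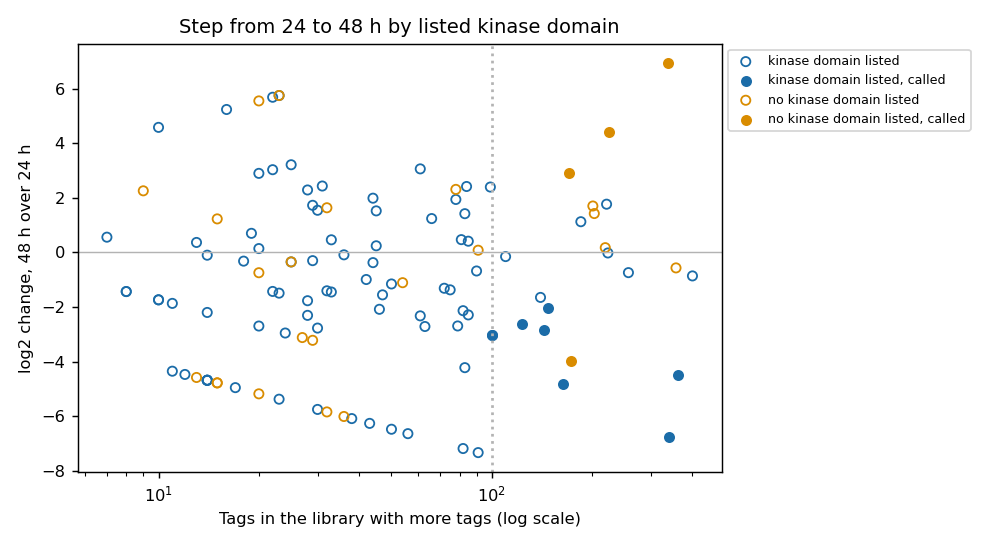
Log2 change from 24 to 48 h (vertical axis) against the tags in the library with more tags (horizontal axis, log scale) for the tested members without the RACK1B genes; blue marks genes with a listed kinase domain, orange those without, filled symbols are called genes and the dotted line stands at 100 tags. All 8 called genes with a kinase domain lie below 0, where 2 of them share one point, and 3 of the 4 called genes without one lie above.

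Between 48 and 72 h the median member again lay close to the median gene, with a log2 change of 0.08 against 0.01 over the 12648 genes tested. The lower quartile was further down for the members, at -1.86 against -1.36. The members' median was -0.08 without the RACK1B genes, and on total tags that of all genes shifted by -0.39 and the members' turned to -0.31. Without the tag minimum, 18 members were called higher (18.2%) and 23 lower (23.2%), beside 17.8% and 16.6% of all genes. Pp1s18_345V6, matched to AT1G56145, had 21, 50, 17 and 131 tags and rose 8.15-fold in this step (4.90 to 14.4). It was the one kinase-domain gene called higher at 72 h than at 0 h, at 9.76-fold (6.13 to 16.3). Pp1s40_207V6, with leucine-rich repeats only, had 231, 219, 190 and 26 tags and fell 6.91-fold (4.57 to 10.9). Its first 3 libraries were nearly level and the t-72 library was low. Pp1s178_122V6, matched like Pp1s85_2V6 to AT1G17230, had 106, 84, 221 and 34 tags and fell 6.15-fold (4.27 to 9.10). The t-72 library was the lowest for both.

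The RACK1B matches had more tags at 48 h than at 24 h and more again at 72 h, and reached the 4-fold call at different steps. Pp1s15_197V6 had 925 tags in t-0 protoplasts and 671, 1818 and 4553 in the cultures. It was called in no single step, at 3.53-fold from 24 to 48 h (3.23 to 3.86) and 2.65-fold from 48 to 72 h (2.51 to 2.80), and was 7.70-fold higher at 72 h than at 0 h (7.18 to 8.28). Its counts were lowest at 24 h and highest at 72 h, as in the next gene. Pp1s259_87V6 had 306, 177, 413 and 1627 tags, with a level 3.04-fold higher at 48 h than at 24 h (2.54 to 3.64), which is short of a call, and rose 4.16-fold in the last step (3.74 to 4.65), a call lost on total tags. Pp1s276_2V6 had 51, 24, 163 and 204 tags and rose 8.84-fold from 24 to 48 h (5.74 to 14.2). Against fresh protoplasts at 72 h these genes were 8.32-fold (7.36 to 9.43) and 6.26-fold higher (4.59 to 8.68), the second of which was not called on total tags.

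Against fresh protoplasts, more members were lower than higher in the later cultures. At 48 h, 2 were called higher and 10 lower of 114 tested, beside 6.5% and 9.51% of all genes. At 72 h, 4 were called higher and 15 lower of 109, beside 6.08% and 7.93%. The higher group at 72 h held the 3 RACK1B genes and Pp1s18_345V6. Among genes with at least 100 tags in either library, 15 of 32 members were called lower at 72 h, beside 20.6% of all such genes, and 4 higher, beside 15.8%. At 48 h, 10 of 33 were lower, beside 24.2%, and 2 higher, beside 16.5%. Without the tag minimum, 12 members were higher and 31 lower at 48 h, beside 13.4% and 26.2% of all genes, and 14 and 34 at 72 h, beside 12.1% and 21.9%. Median log2 changes were -0.79 for the members and -0.36 for all genes at 48 h, and -0.98 and -0.34 at 72 h. These comparisons share the t-0 library with each other and with the first step.

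Several members were called against fresh protoplasts and in no consecutive step, and are named after their values were seen, except Pp1s360_34V6. The lectin kinase Pp1s155_56V6 had 177 tags at 0 h, 91 at 24 h and 0 at both later times. With 3 tags taken as the counting limit of a 0, it was at least 39.9-fold lower at 48 h and at least 37.7-fold lower at 72 h. Since tags of copy number 1 had been removed, a 0 can hide more than this limit allows, and these bounds and the next may be too high. FEI1 is a leucine-rich repeat kinase that acts in wall synthesis, and Pp1s63_173V6, one of its 5 matches, had 116, 56, 0 and 12 tags, at least 26.1-fold lower at 48 h. RKL1 is a receptor-like kinase of leucine-rich repeat type, and Pp1s43_33V6, one of its 2 matches, had 119, 26, 78 and 3 tags, 25.4-fold lower at 72 h (8.47 to 125). Pp1s360_34V6, described as a lectin kinase but listed with a legume lectin domain and no kinase domain, had 314, 91, 74 and 45 tags. It was 4.46-fold lower at 72 h (3.26 to 6.24). In each of these genes the t-0 library had the most tags.

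The chitin receptor CERK1 binds fragments of fungal walls through LysM domains outside the cell. Its 4 matches together had 687, 565, 381 and 293 tags, and none was called in any comparison. Pp1s364_10V6 had 312, 400, 169 and 139 tags, and its level at 24 h was 1.46 times that at 0 h (1.25 to 1.70). Pp1s41_278V6, with no domain listed, had 315, 98, 203 and 110 tags, and its level at 24 h was 2.83 times lower (2.25 to 3.58). These 2 genes began with nearly equal counts, and at 24 h the first had its highest and the second its lowest count. Pp1s54_159V6 had 56, 61, 9 and 44 tags, and Pp1s41_280V6 had 4, 6, 0 and 0, both named only to complete the group. The other genes of LysM description were Pp1s370_45V6, with 17, 14, 10 and 66 tags, and Pp1s5_247V6, with 45, 20, 2 and 11. Pp1s370_45V6 stood 6.98 times higher at 72 h than at 48 h (3.57 to 15.2) but did not reach 100 tags.

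GSO1 is a receptor for peptides that guide the barrier layers of embryo and root. Of its 4 matches, Pp1s340_36V6 had the most tags, with 593, 357, 185 and 192, and was called in no comparison. The other 3 had their highest TMM-scaled level at 72 h, among them Pp1s93_45V6 with 38, 8, 15 and 60 tags, named after its values were seen. Leucine-rich repeats and no kinase domain were listed for all 4 matches. The level of Pp1s340_36V6 was 1.97-fold lower at 72 h than at 0 h (1.67 to 2.34). The kinase Pp1s22_36V6, also among the most abundant, had 305, 223, 169 and 117 tags and stood 1.67-fold lower at 72 h (1.34 to 2.08). Both Pp1s340_36V6 and Pp1s22_36V6 had their highest count at 0 h, and neither change reached 4-fold.

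FERONIA (FER) is the malectin-type receptor kinase that binds RALF peptides at the cell surface and senses the state of the wall. Its match Pp1s29_339V6 had 17, 29, 2 and 21 tags, and the other gene of malectin description, Pp1s262_67V6, had 17, 43, 0 and 4. Both were low at 48 h, and neither reached the 100 tags needed for a call. A malectin domain was listed for neither, and a kinase domain for Pp1s262_67V6 only. The genes of cysteine-rich kinase description, all 6 matched to CRK8, were close to the limit of detection. Of these, Pp1s14_14V6 had 13, 0, 20 and 7 tags, and Pp1s43_86V6 had 2, 3, 0 and 0. No kinase domain was listed for any, so their name rests on the description alone. The only domain listed among them was PF00665, for Pp1s102_171V6, which is not a kinase domain.

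The class sums gave no single course for the family. On the TMM scale the 14 lectin kinases stood at 562.4, 231.6, 349.4 and 162.6 per 1000000 in the order of time. The 125 leucine-rich repeat kinases stood at 2367, 2089, 1646 and 1494. Lectin kinases thus had their lower sums at 24 and 72 h, while the leucine-rich repeat kinases decreased at each step. From 24 to 48 h, 13 lectin kinases were tested with a median log2 change of 0.14 and none was called, whereas 85 leucine-rich repeat kinases had a median of -1.37, with 3 called higher and 8 lower. Over all genes the median was -0.30, and 7.48% were called higher and 6.83% lower. Whether the classes differ was not tested.

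Moss genes that share the best Arabidopsis match often differed in their time course. The 174 genes were matched to 69 Arabidopsis genes, of which 29 were matched once and 18 by 4 or more moss genes. The largest such group was that of AT1G79620, with 14 genes and 1627, 1072, 481 and 601 tags in the order of time. Of its members, Pp1s281_115V6 was low at 48 h alone and Pp1s40_207V6 at 72 h alone, as given above. Pp1s34_202V6 had 400, 90, 43 and 60 tags, and Pp1s183_36V6 had 243, 83, 85 and 14, both with their highest count at 0 h. Pp1s222_106V6 went the other way, with 22, 76, 81 and 94 tags. Pp1s38_73V6 had 41 and 82 tags at the first times and none later. The last 4 of these were named after their values were seen. By TMM-scaled level, 13 genes of the group with at least 10 tags were highest in 2 cases in t-0, 5 in t-24, 4 in t-48 and 2 in t-72. The 4 genes highest in t-48 on this scale, Pp1s40_207V6 among them, all had more tags at 0 h than at 48 h. Their place therefore depends on the scaling.

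**Figure D5:**
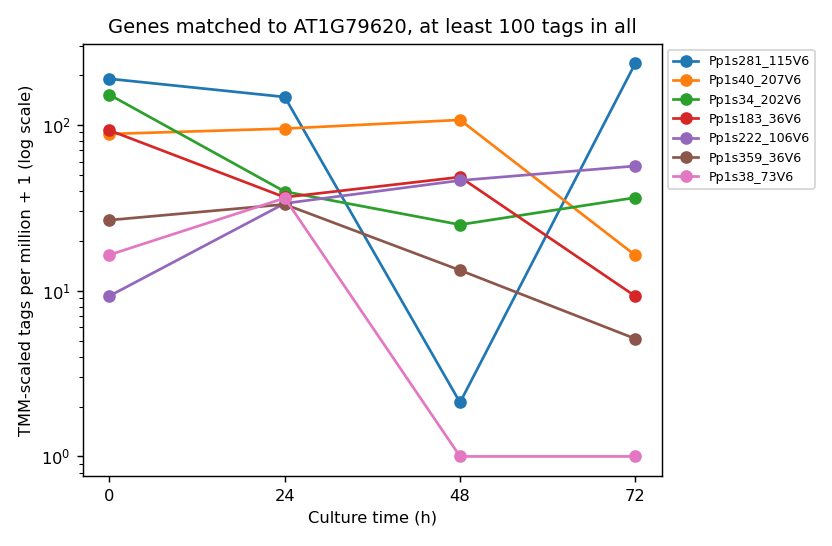
TMM-scaled tags per 1000000 plus 1 (vertical axis, log scale) against culture time in hours for the 7 genes matched to AT1G79620 with at least 100 tags in all; each line is a gene and each point a single library, and a value of 1 stands for 0 tags. The gene with 500, 341, 2 and 397 tags dips at 48 h, the one with 231, 219, 190 and 26 drops at 72 h, and the one with 22, 76, 81 and 94 increases.

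Other groups of this kind leaned to one time point on the TMM scale. The 8 genes matched to AT1G56145 had 283, 481, 54 and 187 tags, and 4 of the 7 with at least 10 tags were highest at 24 h. Those matched to EMS1, also 8, had 174, 161, 70 and 225 tags, and 4 of 7 were highest at 72 h. Among the 7 lectin kinases matched to AT5G55830, with 886, 341, 288 and 176 tags, 4 were highest at 0 h. Groups of this size are too small to read a share from.

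Over the 140 members with at least 10 tags, the highest TMM-scaled level fell in t-0 protoplasts in 38, in t-24 cells in 47, in t-48 cells in 28 and in t-72 cells in 27. The shares are 27.1%, 33.6%, 20% and 19.3%, against 27.0%, 25.1%, 25.1% and 22.7% of the 16013 genes counted the same way. Dark-cultured t-24 cells were therefore the most frequent peak of the members. This held on total tags, with 59 members at 24 h (42.1%, against 35.7% of all genes). It also held with DESeq2 size factors, with 49 (35%, against 26.4%). On both of these scales, 24 h was the most frequent peak of all genes too, so this order is not particular to the members. A peak at least 4-fold above every other library, with 100 tags, was found in Pp1s85_2V6 at 48 h and Pp1s259_87V6 at 72 h, beside 327 of all genes at each of these times. On total tags no member had such a peak at 72 h and 1 had one at 24 h.

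Other genes of receptor signalling were taken from the same descriptions. Among the ligands, 3 genes were found, of which 2 match RALFL34, a peptide of the RALF family that alkalinizes the wall space. Pp1s252_64V6 had 3998, 1045, 414 and 4898 tags and rose 12.5-fold from 48 to 72 h (11.3 to 13.9). Pp1s25_197V6 had 142, 75, 38 and 171 tags and rose 4.76-fold (3.33 to 6.95). Both were lowest at 48 h, and 2 of the 2 ligand genes tested in the last step were called higher, where 7.65% of all genes were.

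Receptor proteins without a kinase numbered 82, a list by wording that also takes in soluble lectins and intracellular immune receptors. The first step had 1 of these higher and 2 lower of 55 tested, the second 3 and 1 of 51, and the last 3 and 3 of 47. The shares of all genes were 2.43% and 4.88%, 7.48% and 6.83%, and 7.65% and 7.06%. The leucine-rich repeat protein Pp1s96_30V6 had 1235, 514, 775 and 6704 tags and rose 9.14-fold in the last step (8.49 to 9.86). The mannose-binding lectin Pp1s200_12V6 had 621, 1612, 1065 and 116 tags and fell 8.69-fold (7.17 to 10.6). The median log2 change of this list from 24 to 48 h was 0.02, against -1.05 for the members and -0.30 over all genes tested. Whether the list and the members differ was not tested.

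Downstream of the receptors, respiratory burst oxidases make reactive oxygen outside the cell. Of 4 genes, the RBOH F match Pp1s18_194V6 had 33, 11, 2 and 107 tags and rose 56.6-fold from 48 to 72 h (15.3 to 473). Its counts at 24 and 48 h were low and the t-72 library was the highest. The 11 genes of ROP GTPases and their activators, which act as switches at the membrane, had 469, 223, 109 and 146 tags, with 0 called in the 3 consecutive steps. Only 10, 7 and 4 of them were tested in these steps. Of all genes, 2.43%, 7.48% and 7.65% were called higher there, and 4.88%, 6.83% and 7.06% lower.

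MAP kinase cascades and the kinases that feed them were represented by 36 genes. In the first step 3 of 29 tested were lower and 0 higher, in the second 1 of 30 was lower and 1 higher, and in the last 0 of 25 were called. Of all genes, 4.88% were lower and 2.43% higher in the first step, 6.83% and 7.48% in the second, and 7.06% and 7.65% in the last. MKP1 is a phosphatase that switches MAP kinases off, and its match Pp1s42_240V6 had 438, 10, 35 and 70 tags and fell 38.5-fold by 24 h (20.7 to 80.9). MPK4 is a MAP kinase of stress signalling and cytokinesis, and its match Pp1s99_26V6 had 190, 249, 39 and 2 tags and fell 4.91-fold from 24 to 48 h (3.49 to 7.06). MKP1 was thus high in fresh protoplasts alone, and MPK4 in both early libraries.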

How the data were processed

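The authors mapped adaptor-trimmed clean tags of each of the 4 libraries to moss gene sequences with Bowtie, allowing 1 mismatch, removed tags of several genes and tags of copy number 1, and deposited the summed tag counts per gene. A second deposited column, headed TPM, was treated as a score, since its values equal tags per fixed number of clean tags, and was not used. Depth and its limits are given with the libraries above.

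Counts were scaled by TMM over the 4 libraries. For the exact test in edgeR the dispersion was 1e-09, and every gene whose tags in both compared libraries summed to 10 or more was tested; p-values were adjusted over all of them by Benjamini and Hochberg. Log2 changes carry a prior count of 0.5. Fold intervals are exact conditional (Clopper-Pearson) 95% intervals. No p is printed, because nothing here measures how cultures vary.

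The members, classes and lists were chosen with earlier results of these data known. The word patterns for oxidases and lectins were corrected after their first matches were seen. Genes named are members called in a consecutive step, BAM2, the 8 members with most tags, the 2 with most tags of each class and up to 2 called genes of each pathway list with most tags; others are marked. Alternatives were total tags, DESeq2 size factors, TMM on the pair, no low filter, no tag minimum, a dispersion of 0.16, a fold of 2, and members by domain. The test was run on simulated counts drawn under counting error alone, from one profile shared by the 4 libraries. That is what the test itself assumes, so the simulation says nothing about how cultures vary. The IDs were not paired with a genome or sequences here, so neither coordinates nor sequences are given. Python 3.11.15 was used with pandas 2.3.3, scipy 1.17.1, matplotlib 3.10.9 and numpy 2.4.6, and edgeR 4.0.16 and DESeq2 1.42.0 ran in R 4.3.3.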

Additional observations from a re-analysis of the deposited data

How the results depend on the processing

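Each time point had 1 library, so leaving out a replicate was not possible. No paired analysis was possible because no time point has a second library. Without the minimum of 100 tags, members called higher and lower numbered 13 and 17 from 0 to 24 h, 19 and 43 from 24 to 48 h, 18 and 23 from 48 to 72 h, 12 and 31 from 0 to 48 h, and 14 and 34 from 0 to 72 h. With a dispersion of 0.16, an assumed coefficient of variation of 0.4 between cultures, 0 were called higher and 1 lower from 0 to 24 h, 4 lower from 24 to 48 h, 1 higher from 48 to 72 h and 1 higher from 0 to 48 h. BAK1, Pp1s281_115V6, Pp1s223_130V6 and Pp1s307_67V6 were still called lower at 48 h, and the call of BAM2 was lost. With a fold of 2, 4 were called higher and 13 lower from 0 to 24 h, 10 higher from 24 to 48 h and 8 higher from 0 to 48 h. Among members with a listed kinase domain, 1 was called lower from 0 to 24 h, 0 higher from 24 to 48 h, 3 higher and 1 lower from 48 to 72 h, 0 higher from 0 to 48 h, and 1 higher and 9 lower from 0 to 72 h. On total tags, 3 were called higher from 48 to 72 h and 1 from 0 to 48 h. Without the RACK1B genes, 1 was called higher from 0 to 48 h and 1 from 0 to 72 h. On total tags without the 10 top genes of the t-72 library, added after the data had been seen, 1 was called higher from 0 to 48 h. The other counts stayed within 1.5 times the value given, TMM on the pair and no low filter included. The share of all genes called was not counted under another dispersion, fold, scale or low filter. Counts of members under those settings therefore cannot be set against all genes. Of 163 changes of named genes, total tags lost the call of 5, DESeq2 size factors of 1 and TMM on the pair of 0. No called change reversed, but none could, since a call needs 4-fold and the scalings shifted changes by less than that. Changes of small size that were not called turned sign in 9, 2 and 1 cases, the largest at 0.31 on the log2 scale. The cause of these differences was not tested.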
